A study of Mus musculus with 2 samples.

Results

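Genes that fold secreted proteins in the endoplasmic reticulum (ER), move them out of it and respond to their misfolding were compared between 2 libraries of mouse chondrocytes. The genes came from a fixed list of 37 symbols, of which 36 were among the 12809 genes compared, out of 13138 in the deposited table. Derl3, which encodes a derlin of the degradation machinery, was the listed gene without a row there, and its level was not analysed here. The members were sorted by role into sensors and transcription factors (6), chaperones and other luminal proteins (11), disulfide isomerases with their oxidase (5), prolyl isomerases (3), degradation genes (6 measured) and genes of COPII transport (5).

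Both libraries were made from total RNA of primary chondrocytes of strain C57Bl/6, kept ex vivo in micromass culture, where densely plated drops of cells lay down cartilage matrix. The culture labelled Cre received a Cre-recombinase adenovirus and has the genotype label hdac3-knockout. The culture labelled GFP received a GFP control adenovirus and has the genotype label wild-type, so both had been exposed to an adenovirus. Hdac3 is a histone deacetylase, and the stated question of the series was which genes differ in chondrocytes deficient in it. Each group held 1 library, with no statement of how many animals or dishes it came from, so no difference has a replicate check, no p-value is given, and each comparison is of these libraries and not of the conditions.

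Cartilage cells secrete large amounts of collagen and proteoglycan, and every such chain enters the ER unfolded. Chaperones hold the chain, disulfide and prolyl isomerases shape it, COPII coats carry the finished protein towards the Golgi, and chains that fail are exported to the proteasome by ER-associated degradation. When unfolded chains accumulate, the sensors Ire1 (gene Ern1), Perk (gene Eif2ak3) and Atf6 start the unfolded protein response, which raises chaperone and degradation genes and lowers protein synthesis. Mice that lack Creb3l2, Sec23a or Mia3 function are known for cartilage or collagen secretion defects.

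The values are the authors' log2 normalized counts, and every difference is Cre minus GFP on that log2 scale, so a negative difference is lower in the library labelled Cre. The transform is not described, and if it shrinks small counts, folds are understated. The depth of each library is unknown. Hdac3 had 10.68 in Cre and 10.69 in GFP, so its gene total showed no loss that would bear out the knockout label. A gene total does not show whether single exons were lost, so it does not test the label either way. Cre and GFP stand throughout for the library with that label. Defining chondrocyte markers were abundant in both libraries, with a summed level of 20.44 in Cre and 20.87 in GFP over 8 genes. Col2a1 made the largest part of this sum, with 19.97 in Cre and 20.35 in GFP. Of the 8 genes, 8 lay below 0, against 50.1% of all compared genes.

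A part of these genes share a short promoter sequence that is known as the site through which Atf6, together with the factor NF-Y, raises chaperone genes. This ER stress response element (ERSE) reads CCAAT, then 9 bases of any kind, then CCACG. RefSeq start sites on GRCm38.p6 gave promoter windows for 31 of the 37 listed genes (34 windows), and the 250 bases before each start were searched on both strands. An ERSE was found in 9 of 31 genes (29.0%), against 0.113% of all 32851 promoters of that length (37 promoters). The list was chosen as genes of this response and the element is known from such genes. The higher share is therefore a description and no new result about them. Derl3 was among the 9, and the other 8 were measured. Their matches are shown because this element is the best known link between the sensors and the chaperone genes. Capitals mark the ERSE, in some genes as its reverse complement, and flanks are shorter where the annotation places an exon.
Hspa5, chr2:34772020-34772048, plus strand: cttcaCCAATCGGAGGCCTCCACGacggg
Hsp90b1 upstream match, chr10:86705613-86705681, minus strand: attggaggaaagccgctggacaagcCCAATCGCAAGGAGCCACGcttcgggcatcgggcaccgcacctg
Hsp90b1 match nearer the start, chr10:86705528-86705556, minus strand: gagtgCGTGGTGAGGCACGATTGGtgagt
Calr, chr8:84847050-84847118, minus strand: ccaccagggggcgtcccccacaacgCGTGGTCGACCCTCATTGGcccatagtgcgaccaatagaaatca
Canx, chr11:50325775-50325843, minus strand: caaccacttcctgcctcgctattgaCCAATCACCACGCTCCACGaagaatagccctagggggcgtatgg
Dnajc3, chr14:118937802-118937870, plus strand: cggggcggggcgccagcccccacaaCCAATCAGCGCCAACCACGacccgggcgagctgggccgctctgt
Creld2, chr15:88819495-88819563, plus strand: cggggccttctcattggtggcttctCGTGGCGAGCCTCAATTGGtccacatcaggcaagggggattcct
Pdia6, chr12:17266466-17266534, plus strand: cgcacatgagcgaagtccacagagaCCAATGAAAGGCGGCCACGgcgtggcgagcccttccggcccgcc
Syvn1, chr19:6046507-6046575, plus strand: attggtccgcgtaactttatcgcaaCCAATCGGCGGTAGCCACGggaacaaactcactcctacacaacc

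The 8 measured genes with an ERSE differed little between the libraries. Their differences ran from -0.08 for Dnajc3 to 0.07 for Calr, with a median of -0.0043 and 3 of 8 above 0 (5 of 8 when totals without the abundant Rn45s and Lars2 were made equal). The 22 measured genes with a window and no ERSE had a median of -0.09, ran from -0.44 to 0.55, and 2 of 22 lay above 0 (4 of 22 under that scaling). Of all 12809 compared genes, 6393 lay above 0 as deposited. Most of the 8 genes belong to the chaperone group, which had a median of -0.02 with 5 of 11 above 0. The split by ERSE thus overlaps with that by role. The difference between genes with and without an ERSE was not tested.

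Each of the other elements searched for was found in 1 of the 31 genes with a window (3.23%). As for the ERSE, the list was chosen as genes of this response, so these shares are a description only. The variant ERSE-II, which reads ATTGG, 1 base of any kind and CCACG, was found in Herpud1 and in 10 of all promoters (0.0304%). Herpud1 also held the composite core TGATGNAAN, bound in other genes by C/EBP-ATF pairs such as those with Atf4, which 3.44% of all promoters hold. The core TGACGTGG of the unfolded protein response element (UPRE), known as an Xbp1 and Atf6 site, was found in Sec24d and in 0.563% of all promoters. No pair of these matches overlapped. Herpud1 is shown because it had the lowest difference of all members, and capitals mark the match.
Herpud1 ERSE-II, chr8:94386352-94386412, plus strand: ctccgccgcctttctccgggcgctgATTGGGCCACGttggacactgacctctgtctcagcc
Herpud1 composite core, chr8:94386291-94386349, plus strand: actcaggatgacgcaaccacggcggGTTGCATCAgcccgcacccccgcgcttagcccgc
Sec24d UPRE core, chr3:123267465-123267482, plus strand: gcgccTGACGTGGcacta

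The module as a whole was close to level. Of 36 genes, 1 was higher and 2 were lower in the library labelled Cre by at least 0.3 on the log2 scale (1.23-fold), which is 8.33% of them, against 11.5% of all compared genes. In each direction, 6.55% of all compared genes were that much higher and 4.91% that much lower, so the counts among members lie near the background. The median difference was -0.07, where that of all compared genes was -0.00041. Of the 36, 30 lay below 0 (83.3%), against 50.1% of all compared genes. These shares of all compared genes are also the background for the counts of each role group below. With totals made equal without Rn45s and Lars2, these shares were 25 of 36 (69.4%) and 45.3%. Abundant genes lay below 0 more often in any case, and at a mean log2 value from 12 upwards the shares were 18 of 22 members (81.8%) and 62% of 1362 genes. At those levels 1 of the 22 was higher and 1 lower by 0.3, against 8.81% and 9.1% of the 1362 genes. Most of these differences were small, and 20 of 36 members were within 0.1 of 0, as were 54.8% of compared genes.

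**Figure D1:**
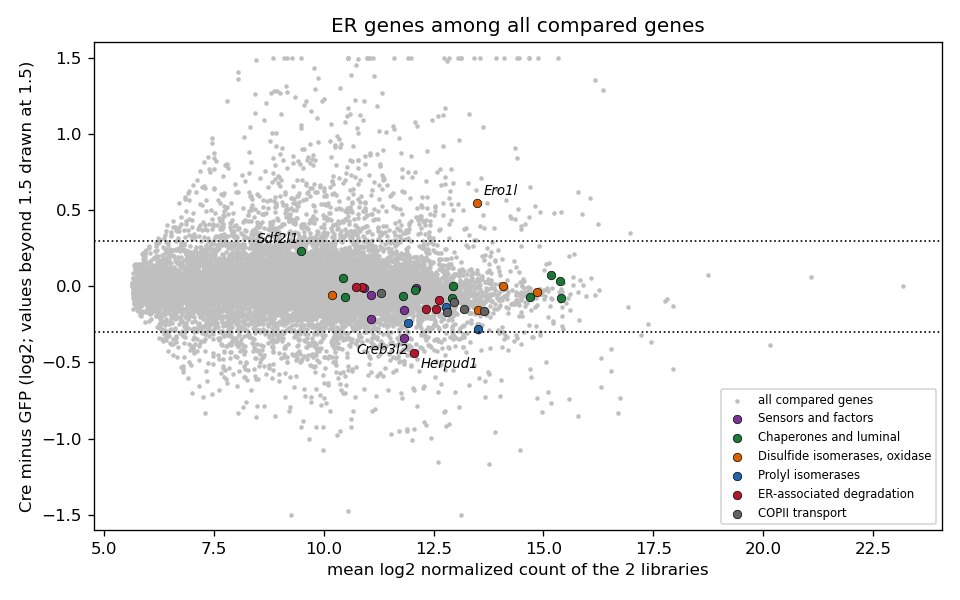
Difference between the libraries (Cre minus GFP, log2, vertical axis, with values beyond 1.5 drawn at 1.5) against the mean log2 normalized count (horizontal axis) for 12809 genes in grey, with the 36 ER genes coloured by role and dotted lines at 0.3 and -0.3. Ero1l lies above the upper line, Herpud1 and Creb3l2 below the lower one, and the other members lie between the lines.

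Of the 3 stress sensors, 0 differed by 0.3, and all lay below 0 under every scaling tried. Eif2ak3, the kinase that phosphorylates eIF2alpha and so slows translation, had 10.96 in Cre and 11.18 in GFP, a difference of -0.21. Atf6, a membrane-bound factor that is cut in the Golgi and then enters the nucleus, had 11.74 in Cre and 11.90 in GFP, a difference of -0.16. Ern1, the nuclease that splices Xbp1 mRNA, had 11.05 and 11.11, a difference of -0.05. The sensors act as proteins, and RNA totals do not report their activity. For Eif2ak3, 485 of 4841 exon bases are shared with Gm43292 on the other strand, and reads from the shared part cannot be assigned.

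The transcription factors fell into a level pair and a lower gene. Xbp1, the factor made from the mRNA that Ern1 splices, had 12.09 in Cre and 12.10 in GFP. Its gene total does not separate the spliced from the unspliced form. Creb3l1, which in mouse bone drives collagen secretion, had 10.92 in Cre and 10.93 in GFP. The signs of both differences (-0.01 each) turned when the libraries were scaled to equal totals that left out Rn45s and Lars2. Creb3l2, a membrane-bound factor that in mouse chondrocytes activates Sec23a, had 11.67 in Cre and 12.01 in GFP. It stood 1.27-fold higher in the library labelled GFP (difference -0.34), and 9.35% of all compared genes differed by as much in either direction. Creb3l2 lies on chromosome 6, on the minus strand, from 37327255 to 37442146 (GRCm38).

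The chaperone genes were close to level. Of 11 genes, 0 reached 0.3 in either direction, 6 lay below 0 and 5 above, and the median was -0.02. Hspa5, the Hsp70 chaperone BiP that also holds the sensors inactive, had 15.35 in Cre and 15.43 in GFP, a difference of -0.08. Hsp90b1, the Hsp90 of the ER, had 15.39 and 15.36, a difference of 0.03. Both of these abundant chaperone genes were thus within 0.1 of level. Calr and Canx, the lectin chaperones that hold glycoproteins, lay on either side of 0, at 0.07 and -0.07. Hyou1, an exchange factor for Hspa5, had 12.94 in Cre and 12.93 in GFP.

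Among the members, the partners of Hspa5 that carry a J domain (Dnajc3, Dnajb9 and Dnajb11) had small differences of like direction and size. Of all compared genes, 53.8% differed by as much as Dnajc3 and 61.3% by as much as Dnajb11. J domain genes outside the member list are not covered by this statement. Dnajc3, the lowest of the group, had 12.89 in Cre and 12.97 in GFP, a difference of -0.08. Dnajb9 differed by -0.07 and Dnajb11 by -0.06. Sdf2l1, a luminal partner of Dnajb11 that the response induces, was the highest of the chaperone group, with 9.61 in Cre and 9.38 in GFP. Its difference of 0.23 (1.17-fold) stayed short of 0.3, and 16.8% of all compared genes differed by as much. Sdf2l1 also had the lowest mean value of the members, 9.49, before any correction for exon length. With that correction it ranked 28 of the 36. The other stress-induced luminal proteins, Creld2 and Manf, differed by 0.06 and -0.02. Hsp90b1 shares exon bases with 3 annotated genes, 415 of its 2825 with 1810014B01Rik on the other strand, and Manf shares 166 of 2464 with 4930524O07Rik.

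Among the disulfide members, the oxidase gene Ero1l lay apart from the isomerases. Ero1lb, a relative on the further list of disulfide genes, differed by 0.07, so this contrast rests on Ero1l alone. Ero1l, the oxidase that passes electrons from disulfide isomerases to oxygen, had 13.75 in Cre and 13.21 in GFP. It was 1.46-fold higher in Cre (difference 0.55) and the only member past 0.3 in that direction. Of all compared genes, 3.73% differed by as much in either direction, and among the 311 genes whose mean lay within 0.5 of its own the share was 8.36%. Ero1l is known to respond to low oxygen as well as to ER stress. It lies on chromosome 14, on the minus strand, from 45283087 to 45318771 (GRCm38), and shares no exon base with another annotated gene.

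The 4 disulfide isomerases, which form and shuffle disulfide bonds, all lay below 0, Pdia6 by under 0.001. Pdia4 had 13.44 in Cre and 13.60 in GFP, a difference of -0.15. Pdia5 differed by -0.06 and Pdia3, which works with Calr and Canx on glycoproteins, by -0.04. Pdia6 had 14.08 in both libraries, and its difference of -0.00086 turned sign under both scalings to equal totals. None of the 4 isomerases was higher by 0.3, where 6.55% of all compared genes were.

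The 3 prolyl isomerases, which speed the folding of collagen chains, had the lowest median of the role groups (-0.24), and 0 of 3 reached 0.3. Fkbp10 had 13.38 in Cre and 13.66 in GFP, a difference of -0.28 that was the closest to the threshold of the members that missed it. Fkbp14 had 11.79 and 12.03, a difference of -0.24, and Ppib, cyclophilin B, had 12.71 and 12.84, a difference of -0.13. All 3 were higher in the library labelled GFP. Ppib shares 514 of its 892 exon bases with Snx22 and Fkbp10 shares 193 of 2584 with Nt5c3b, both on the other strand, so their totals are uncertain.

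**Figure D2:**
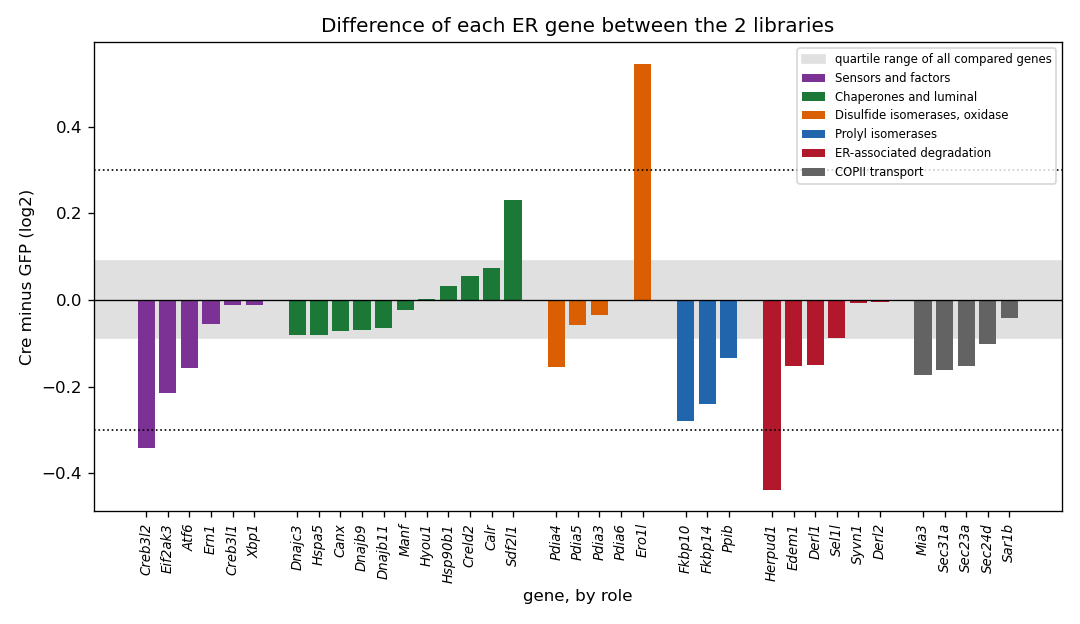
Difference of each of the 36 genes (Cre minus GFP, log2, vertical axis), ordered within its role on the horizontal axis, with a grey band from the lower to the upper quartile of all compared genes (-0.09 to 0.09) and dotted lines at 0.3 and -0.3. The sensors and factors, prolyl isomerases, degradation and COPII genes all lie below 0 as deposited (Xbp1, Creb3l1, Syvn1 and Derl2 turn under a scaling named in the text), while the chaperones lie on both sides and Ero1l stands at 0.55.

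All 6 measured degradation genes lay below 0 (4 of 6 with totals made equal without Rn45s and Lars2), with a median of -0.12, and Herpud1 was the only one past 0.3. Herpud1, an ER membrane protein that gathers the degradation complex and is strongly induced by ER stress, had 11.83 in Cre and 12.27 in GFP. It stood 1.36-fold higher in the library labelled GFP (difference -0.44), the lowest difference of all members. Of all compared genes, 5.80% differed by as much, and 6.20% of the 1226 genes within 0.5 of its mean. Herpud1 lies on chromosome 8, on the plus strand, from 94386438 to 94395377 (GRCm38).

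The rest of the degradation machinery differed less. Edem1, which helps pick misfolded glycoproteins, had 12.26 in Cre and 12.41 in GFP, a difference of -0.15. Derl1, a membrane protein of the exit channel, had 12.49 and 12.64, a difference also of -0.15. The ubiquitin ligase gene Syvn1 and its adaptor gene Sel1l differed by -0.01 and -0.09. Derl2, another membrane protein of that kind, had 10.73 in Cre and 10.74 in GFP, a difference of -0.0046. The signs of Syvn1 and Derl2 turned when totals that left out Rn45s and Lars2 were made equal, that of Derl2 also under plain equal totals. Derl2 shares 231 of 4301 exon bases with Mis12 on the other strand.

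All 5 COPII genes lay below 0 within a narrow range, with a median of -0.15, and 0 of 5 reached 0.3. Mia3, the receptor Tango1 that loads collagens into COPII carriers, had 12.72 in Cre and 12.89 in GFP, a difference of -0.17. The outer coat gene Sec31a had 13.58 and 13.74, a difference of -0.16. The inner coat gene Sec23a had 13.13 and 13.28, a difference of -0.15. The cargo-binding coat gene Sec24d differed by -0.10. Sar1b, the GTPase that starts coat assembly, had 11.28 and 11.32, a difference of -0.04. Each of the 5 was thus slightly higher in the library labelled GFP.

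Levels of different genes were compared per kilobase (kb) of annotated exon. The 3 highest members per kb were Calr, with 14.09 in Cre and 14.02 in GFP on the log2 scale, Hsp90b1 with 13.89 and 13.86, and Hspa5 with 13.44 and 13.52. Calr lay above Hsp90b1 and Hsp90b1 above Hspa5 in each library. Next came the isomerase genes Pdia3 with 13.36 and 13.40, Pdia6 with 12.96 in both libraries, and Ppib with 12.87 and 13.01. Pdia6 lay above Ppib in Cre and below it in GFP, so their order was not fixed. The full exon length was used throughout. Hsp90b1 shares 415 of 2825 exon bases with 1810014B01Rik, and Ppib shares 514 of 892 with Snx22. Reads from shared parts cannot be assigned, so the ranks of Hsp90b1 and Ppib among the highest members are uncertain. The lowest per kb was the sensor gene Ern1, with 8.03 in Cre and 8.08 in GFP, below Derl2 with 8.63 in both. Of the 36 members, Ero1l shifted furthest per kb, from 11.07 in GFP to 11.61 in Cre.

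**Figure D3:**
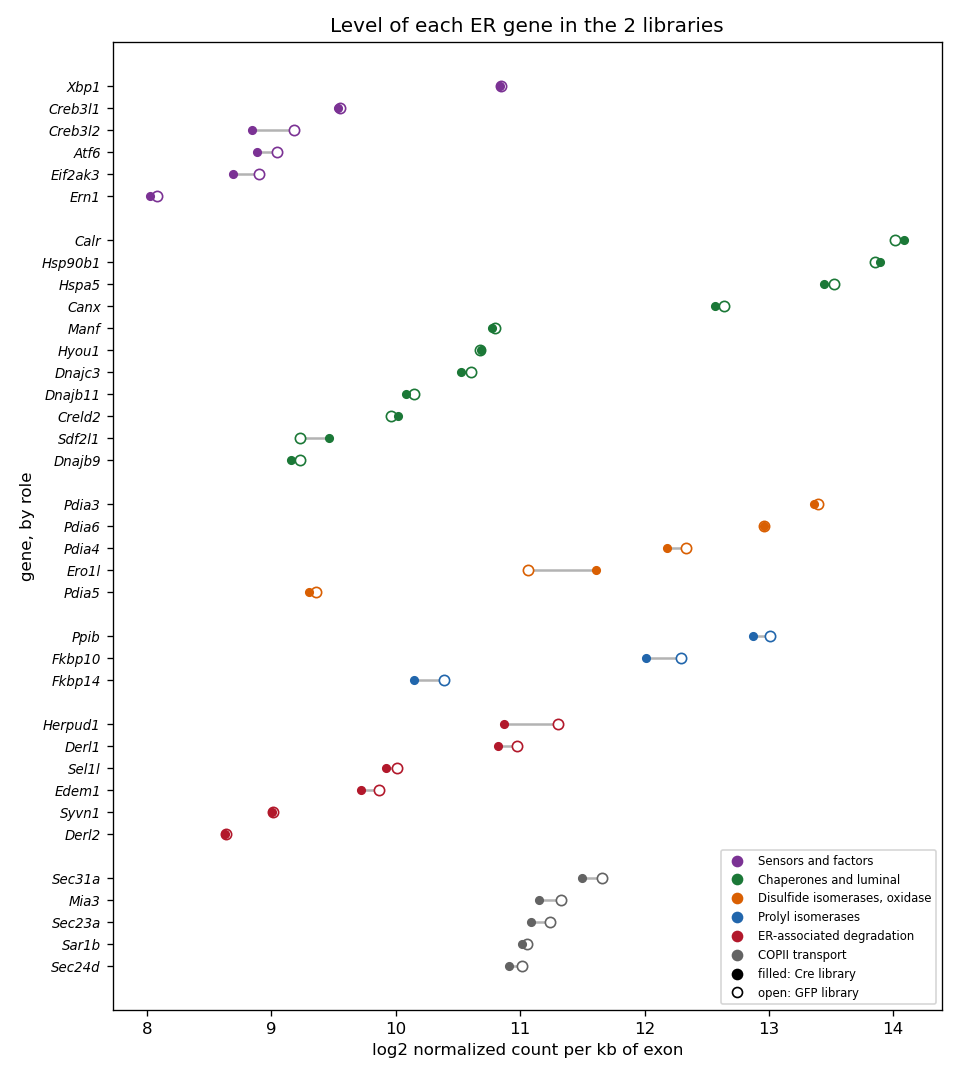
Level of each gene as log2 normalized count per kb of annotated exon (horizontal axis) in Cre (filled points) and GFP (open points), with genes grouped by role on the vertical axis. Levels run from about 8.03 for Ern1 to 14.09 for Calr, and the gap between the points of a gene is small beside the range between genes.

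Other genes of the same pathways, in 8 lists of 146 symbols, were compared in the same way, and 136 were measured. Of these, 2 were higher and 3 lower by 0.3, 92 lay below 0 (89 to 92 under the scalings tried), and the median was -0.06. Over all compared genes, the shares given above were 6.55% higher, 4.91% lower and 50.1% below 0, and 62% below 0 at a mean from 12 upwards. The median of 16 further chaperone and glycoprotein folding genes was -0.07. Serpinh1, the collagen chaperone Hsp47, had 16.08 in Cre and 16.55 in GFP and stood 1.39-fold higher in the library labelled GFP. Cdnf, a relative of Manf, had 8.15 and 8.48, a difference of -0.33. P4hb, a disulfide isomerase that is also a subunit of collagen prolyl hydroxylase, had 15.70 and 15.64. Its difference of 0.06 lay above 0, where the member isomerases lay below 0 as deposited.

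The list of other sensors and genes of the eIF2alpha arm held genes on both sides of 0. Ddit3, the factor Chop that the arm induces through Atf4, had 11.32 in Cre and 11.69 in GFP and stood 1.29-fold higher in the library labelled GFP. Atf4 itself differed by -0.16 and Ppp1r15a, which reverses the arm, by -0.22. Ppp1r15b and Eif2s1 went the other way, at 0.13 and 0.02. The 2 higher genes of that list have roles outside the ER too: Traf2, an adaptor of TNF receptors and of Ern1, stood 1.37-fold higher in the library labelled Cre, and Eif2ak2, the kinase that senses double-stranded RNA and is induced by interferon, was 1.36-fold higher there. The median of the 15 genes was 0.02, with 8 above 0.

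Of the lists for entry into the ER and for transport, 0 genes reached 0.3, and most lay below 0. For the translocon, signal peptidase and oligosaccharyltransferase, 22 of 27 lay below 0, with a median of -0.08, led by Sec62 at -0.28 and Stt3a at -0.18. For the COPI coat, which returns proteins to the ER, 8 of 9 lay below 0, with a median of -0.09, led by Copz2 at -0.25 and Copg2 at -0.22. For other COPII genes and cargo receptors, 18 of 27 lay below 0, with a median of -0.07, led by Lman1 and Sec16b at -0.24 each. Other degradation genes had a median of -0.05 over 23, led by Vimp at -0.22 and Erlec1 at -0.18. Other disulfide genes were level (median 0.0066 over 14, led by Creld1 at 0.19 and Qsox1 at 0.18), and other prolyl isomerases split, from -0.26 for Fkbp9 to 0.28 for Fkbp11, with a median of -0.03 over 5.

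**Figure D4:**
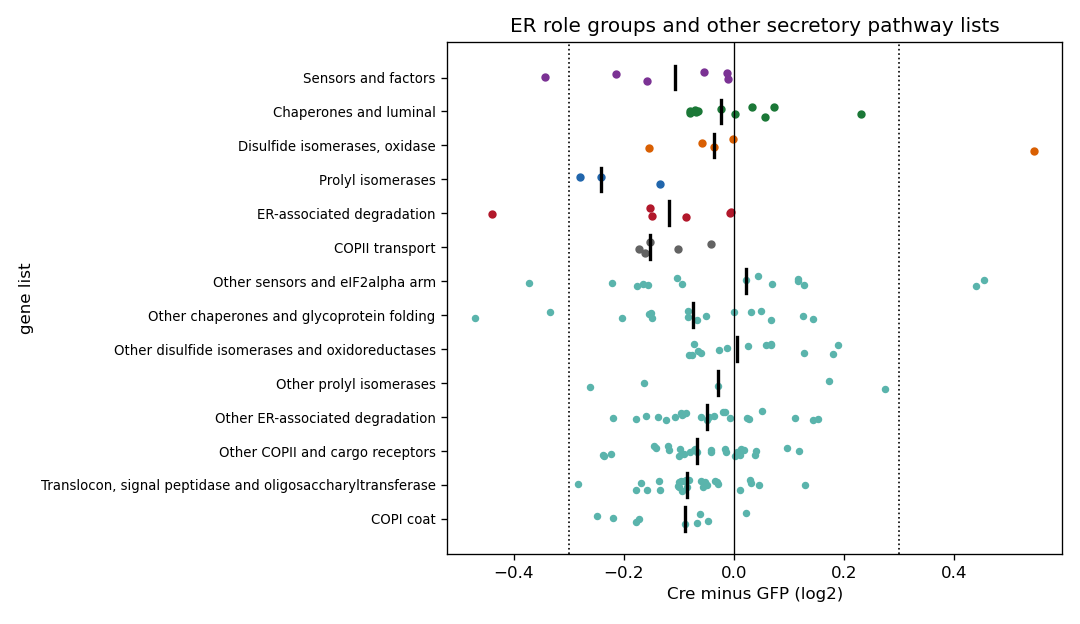
Differences of single genes (points, Cre minus GFP, log2, horizontal axis) for the 6 role groups and 8 further lists (vertical axis), with a black bar at each list's median, dotted lines at 0.3 and -0.3 and vertical scatter for legibility only. Medians run from -0.24 for the prolyl isomerases to 0.02 for the other sensors and eIF2alpha arm.

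Markers of cell types also differed between the libraries. Of all compared genes, 6.55% were higher and 4.91% lower by 0.3, and 50.1% lay below 0. The 8 chondrocyte markers, most of which encode major cargo of the ER, had a median of -0.49, and 7 of 8 were lower by 0.3. Of 11 macrophage and osteoclast markers, 9 lay above 0, 6 were higher by 0.3 and 1, Mrc1, was lower by it, at -0.73, with a summed level of 15.74 in Cre and 15.12 in GFP. Lyz2 made the largest part of this macrophage and osteoclast sum, with 14.82 in Cre and 13.98 in GFP. Of the plasma cell and B cell list, Sdc1, which many other cells express, was the one gene compared, at 0.72. Fibroblast and perichondrial markers went both ways: of 7, Dcn, Pdgfra and Col3a1 were higher by 0.3 and Col1a2 was lower by it, with a median of -0.0027 and a summed level of 18.91 in Cre and 18.90 in GFP, and 3 compared endothelial markers had 9.04 and 8.97. Their part in the differences of the ER genes was not tested, and in bulk RNA fewer cells of a type and less RNA per cell cannot be told apart.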

How the data were processed

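RNA-seq values of 2 libraries were analysed, 1 transduced with Cre adenovirus and 1 with GFP control adenovirus. Per the labels' protocols, the library kit was TruSeq v2 mRNA (Illumina). TopHat2 2.0.6, HTSeq, bcl2fastq 1.8.4 and the build mm10 appear in the submitters' processing notes. Not given in the sources used here are the strand setting, the annotation and the transform. The authors deposited log2 values of normalized counts for 13138 genes, with no read counts, so depth and counting error are unknown. A regularized log is inferred from a column heading only.

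The comparison, Cre minus GFP, kept the 12809 genes whose mean reached 50 on the count scale. A gene was counted as higher or lower at 0.3 or more on the log2 scale. No test was possible with 1 library per group. The members, lists, threshold and alternatives were chosen with earlier results of these data known. In each role group the extreme members, all sensors and all members past 0.3 were given in full. Of each further list the 2 largest differences and all past 0.3 were named. P4hb, Ero1lb, Atf4, Ppp1r15a, Ppp1r15b, Eif2s1 and Sdc1 were named outside this rule, after their values were seen. So were Mrc1, Lyz2, Col2a1, Dcn, Pdgfra, Col3a1 and Col1a2. Of the further symbols, 4 were found through RefSeq synonyms. Exon lengths, overlaps and coordinates came from GENCODE M21 (GRCm38, the assembly also called mm10), and promoters from RefSeq (GRCm38.p6). A planned search of protein ends was not made, since no protein table was used here. The calculations used Python 3.11.15, pandas 2.3.3 and numpy 2.4.6. The calling rule was run on simulated differences without noise, which checks the code and not the calls made from 1 library per group.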

Additional observations from a re-analysis of the deposited data

How the results depend on the processing

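The counts depended on the threshold. At 0.2, 2 members were higher in Cre and 5 were lower, against 11.2% and 9.45% of all compared genes. At 0.5, 1 was higher and 0 were lower (3.04% and 1.48% of all), and at 1, 0 were higher and 0 lower (0.734% and 0.0703%). Among members at a mean log2 value from 12 upwards, an alternative chosen after seeing the data, 1 was higher and 1 lower. The 3 scalings, no minimum and a minimum of 500 left both counts as they were. All 49 alternative values of the group medians stayed within 0.1 of those given, a width that exceeds several of the medians themselves. At a mean log2 value from 12 upwards, the sensor and factor group went from -0.11 to -0.01, with Xbp1 its 1 remaining gene. Means over members put the disulfide group at 0.06, through Ero1l, and the chaperone group to 0.00097. Each scaling shifted all genes by 1 offset, from -0.00041 to -0.0147. Equal totals without Rn45s and Lars2 turned the sign of 5 members, of which Creb3l1 at -0.0117 lay furthest from 0. Plain equal totals turned that of Pdia6 and Derl2, and setting the median difference of compared genes to 0 turned none. No paired analysis was possible because a group is 1 library. Pseudocounts were not run, since the table holds log2 values.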

Other observations

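The 36 ER genes held 1.08% of the summed linear values of Cre, leaving out precursor ribosomal RNA (Rn45s), and 1.10% of those of GFP. Across these 36 genes, which share the same pair of libraries, the difference had a Spearman rho of -0.27 with exon length, against -0.04 across 11605 compared genes with a length, a description in which genes are not independent replicates.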
